A study of Mus musculus with 13 samples.

Results

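The genes described here, 8 of the 24470 in the count table, were Ctcf, the cohesin subunit genes Smc1a, Smc3, Rad21, Stag1 and Stag2, the cohesin loader gene Nipbl, and Yy1. They were taken by gene symbol, and each of the 8 had 1 row in the table. The cells were E14 mouse embryonic stem cells, a single line of 129/Ola background kept in fetal bovine serum and leukaemia inhibitory factor, with no genetic change and no treatment in any group. In the low-input protocol, cells were opened with a mild detergent, accessible DNA was cut by the transposase Tn5, and polyadenylated RNA was then captured from the lysate on oligo-dT beads, which gave a pair of libraries per batch of cells, ATAC (open chromatin) and mRNA. Experiment 1 used 10000 and 20000 cells, and experiment 2, on another day, used 5000, 10000 and 20000 cells, which gave 5 mRNA and 5 ATAC libraries. For comparison, the Omni-ATAC protocol was applied once each to 5000, 10000 and 50000 cells, which makes 8 ATAC lists. No label says whether libraries of 1 experiment came from separate cultures, so the spread between them may be technical.

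CTCF is a zinc-finger protein that binds DNA at the borders of chromatin domains. Cohesin is a ring made of SMC1A, SMC3 and RAD21, joined by either STAG1 or STAG2. NIPBL helps to load the ring and drives it along DNA, where it extrudes a loop until it meets bound CTCF. YY1 is a zinc-finger factor that binds promoters and enhancers and has been linked to the contacts between them in embryonic stem cells.

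The mRNA libraries held between 13727122 and 20426252 counts, and the members had between 202 counts (Nipbl, 10000 cells of experiment 1) and 3847 counts (Rad21, 20000 cells of experiment 2) in a library. Levels are given as CPM, counts scaled to the library's total. They are not per length, since no transcript length was used, so levels are compared between libraries and not between genes. The stem cell markers Pou5f1, Sox2, Nanog, Esrrb and Zfp42 summed to between 941 and 1150 CPM. The ATAC lists held between 9097 and 95457 intervals without heights, and the depth behind them is unknown.

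Open promoters were examined first, as at least 1 called interval within 1000 bp of the transcription start site (TSS) given by the count table. This held in 53 of the 64 combinations of 8 members and 8 lists. Smc3 and Stag1 had such an interval in 8 of 8 lists, Ctcf, Smc1a, Rad21 and Yy1 in 7, Nipbl in 5 and Stag2 in 4. With intervals of at least 50 bp, Nipbl had 3 lists, Ctcf 5 and Stag2 1, and among the 9097 widest intervals of each list Nipbl had 2, Stag2 0, and Ctcf, Smc1a and Yy1 5 each. Of the 6485 genes whose mean level reached 10 CPM, as all 8 members' did, 32.2% had one in all 8 lists and 4.02% in none.

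The gaps fell mostly in the shorter lists. With 50000 Omni-ATAC cells, 8 of 8 members had a promoter interval, where 95.7% of the genes with at least 10 CPM and 61.1% of all genes had one. The experiment 2 lists from 10000 and 20000 cells also had 8 of 8, against 76.9% and 88.8% of those genes and 40.5% and 50.3% of all genes. In the experiment 1 lists, 5 of 8 members had one with 10000 cells (61.7% of those genes, 31.1% of all) and 7 of 8 with 20000 cells (71.2% and 37.4%). The experiment 2 list from 5000 cells had 6 of 8 (62.7% and 31.1%). Omni-ATAC had 4 of 8 with 5000 cells (38.8% and 18.6%) and 7 of 8 with 10000 cells (75.9% and 41.5%). In each of the 8 lists the members' share lay above that of the expressed genes. The same 8 genes recur in every list, and no test was made of these shares. The roles of list length, input and sequencing depth cannot be told apart.

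**Figure D1:**
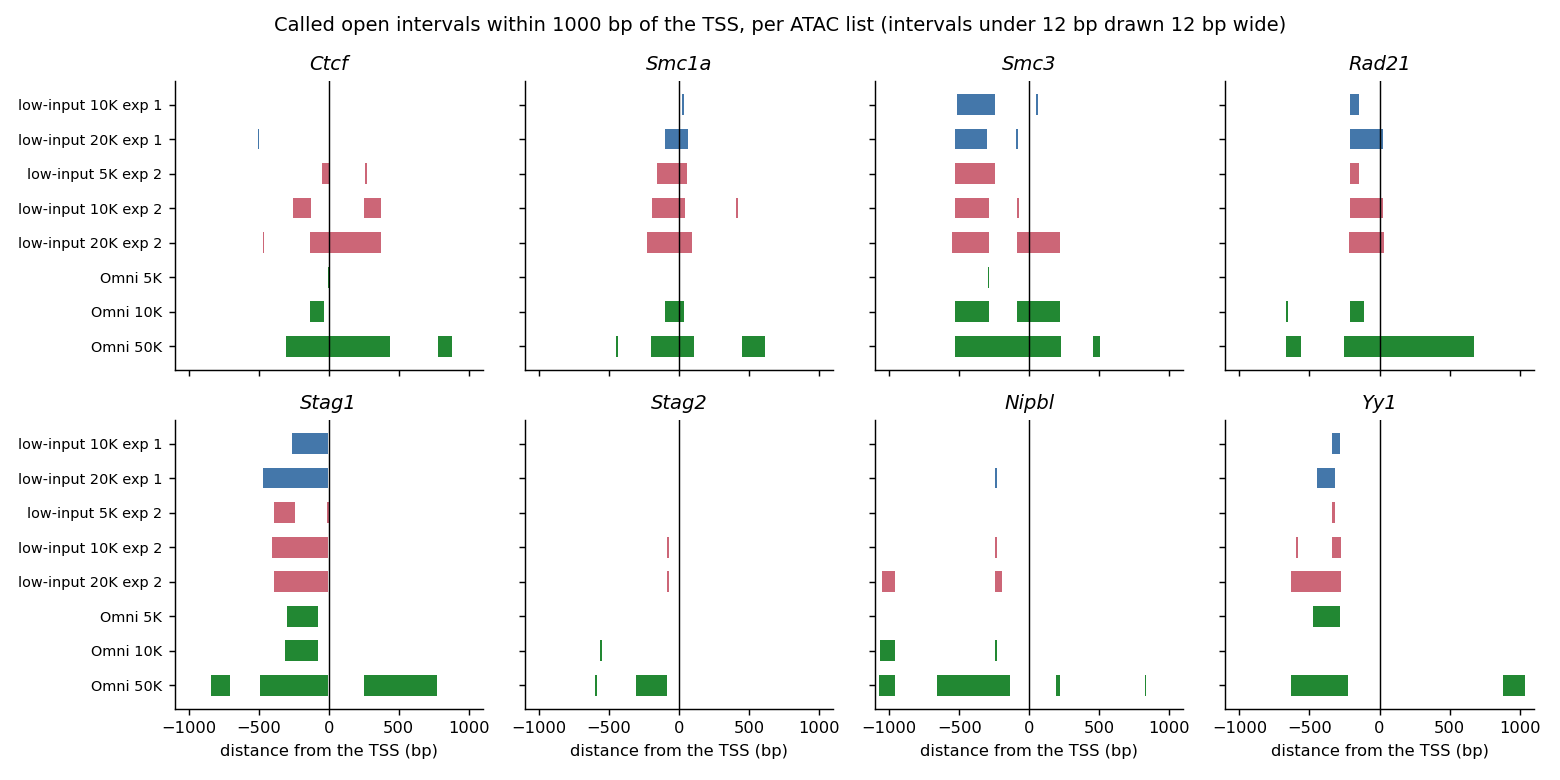
Called intervals around the TSS of each gene, with the distance from the TSS in bp along the gene's direction on the x axis and 1 row per ATAC list (blue, low-input experiment 1; red, low-input experiment 2; green, Omni-ATAC). Smc3 and Stag1 have intervals in all 8 lists, and Stag2 has intervals of 9 bp in 2 low-input lists and 1 wide interval with 50000 Omni-ATAC cells.

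Ctcf (mm10 chromosome 8, 105636538 to 105682922, plus strand) had little open length at its promoter in experiment 1. Summed over its intervals, the open length was 0 bp with 10000 cells and 9 bp with 20000 cells in experiment 1. In experiment 2 it was 62 bp with 5000 cells, 247 bp with 10000 and 519 bp with 20000. The Omni-ATAC lists gave 9, 95 and 833 bp with 5000, 10000 and 50000 cells. The 3 experiment 2 values lay above both experiment 1 values. The value from 5000 cells is the sum of intervals of 51 and 11 bp. The experiment 1 lists held 18877 and 27016 intervals, and those of experiment 2 held 18637, 29870 and 49508. The parts of list length and depth were not tested. The Smc1a lengths were also apart, with 9 and 163 bp in experiment 1 and 213, 239 and 321 bp in experiment 2. The other 6 members overlapped. The lists as a whole covered 1.39 and 2.33 Mb in experiment 1 and 1.4, 2.84 and 6.03 Mb in experiment 2. The lengths were compared after they were seen, with no test. No count was made over all genes, so the separation cannot be called particular to Ctcf and Smc1a.

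The ring genes had intervals at or close to the TSS. Smc1a (chromosome X, 152016428 to 152061973, plus strand) had an interval covering its TSS in 6 of its 7 lists, and the deposited unified region ran from position -190 to 61, counted in bp from the TSS. The TSS of Ribc1 lies 133 bp away on the other strand, with a mean of 5.44 CPM, so the Smc1a region cannot be assigned to 1 of these genes. Smc3 (chromosome 19, 53600396 to 53645831, plus strand) had 2 intervals in 6 of its 8 lists. An upstream interval began between positions -555 and -513 in each of the 5 low-input lists, and the interval over the TSS itself was called with 20000 low-input cells of experiment 2 and with 10000 and 50000 Omni-ATAC cells. Rad21 (chromosome 15, 51962604 to 51991760, minus strand) had an interval with its upstream end at position -211 in 5 of its 7 lists, and at -219 and -252 in the other two.

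The STAG genes had unlike promoter calls. Stag1 (chromosome 9, 100643623 to 100958544, plus strand) had 163 to 463 bp of open length in the low-input lists and 219 to 1147 bp in the Omni-ATAC lists. Stag2 (chromosome X, 42149412 to 42277186, plus strand) had 9 bp in each of 3 lists (experiment 2 with 10000 and 20000 low-input cells, and 10000 Omni-ATAC cells), 237 bp with 50000 Omni-ATAC cells, and 0 bp in the other four. The 9 bp intervals are the shortest the lists hold. When only intervals of at least 50 bp were counted, Stag1 kept 8 of 8 lists and Stag2 had 1. Nipbl (chromosome 15, 8289824 to 8444463, minus strand) had 0 bp in 3 lists, 9 to 146 bp in the other low-input lists, and 121 and 671 bp with 10000 and 50000 Omni-ATAC cells. Intervals that reach past the 1000 bp window were summed in full. For Nipbl, 91 of the 146 bp ran from position -1052 to -962, and 108 of the 121 bp from -1069 to -962. Its unified region, from position -1057 to -962, lay at the same place. Yy1 (chromosome 12, 108793311 to 108816632, plus strand) had its unified region wholly upstream, from position -593 to -278, and no list had an interval over the TSS itself.

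Promoter sequences show where these intervals lie. RefSeq (GRCm38.p6, the assembly of mm10) gave a promoter window, 250 bases before to 50 after a start, for 5 of the 8 members (Ctcf, Smc1a, Smc3, Stag1 and Yy1). The start equals that of the count table for Ctcf, Smc1a and Smc3, and lies 175 bp upstream of it for Stag1 and 14 bp for Yy1. Bases before the start are shown for the Ctcf, Smc1a and Yy1 promoters, 5′ to 3′ on the plus strand, with capitals marking the part inside a deposited unified open region. They show a region that begins within the window for Ctcf, one that fills most of it for Smc1a, and none for Yy1. The Ctcf sequence stops at position -65, the last base before the RefSeq gene record begins, upstream of the start that defines the window. The rest of its open region, which runs to that start, is not shown.
Ctcf, chr8:105636288-105636473: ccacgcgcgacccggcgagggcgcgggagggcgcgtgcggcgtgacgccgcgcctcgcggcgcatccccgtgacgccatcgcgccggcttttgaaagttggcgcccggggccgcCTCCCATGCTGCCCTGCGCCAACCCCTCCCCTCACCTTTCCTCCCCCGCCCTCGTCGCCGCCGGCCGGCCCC
Smc1a, chrX:152016178-152016427: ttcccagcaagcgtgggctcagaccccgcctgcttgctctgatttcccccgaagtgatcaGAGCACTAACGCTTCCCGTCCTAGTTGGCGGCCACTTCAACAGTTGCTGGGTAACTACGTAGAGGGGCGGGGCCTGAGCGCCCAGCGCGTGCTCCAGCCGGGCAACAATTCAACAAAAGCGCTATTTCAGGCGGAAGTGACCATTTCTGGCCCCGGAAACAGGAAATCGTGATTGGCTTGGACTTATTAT
Yy1, chr12:108793047-108793296: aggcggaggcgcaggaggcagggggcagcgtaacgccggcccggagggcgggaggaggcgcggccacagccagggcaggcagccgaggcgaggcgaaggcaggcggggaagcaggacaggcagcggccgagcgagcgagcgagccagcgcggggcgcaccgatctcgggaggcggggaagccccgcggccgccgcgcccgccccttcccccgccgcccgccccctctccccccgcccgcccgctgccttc

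The 5 windows were rich in CpG. Ctcf had 47 CpG in 300 bases, Stag1 43, Yy1 42, Smc3 32 and Smc1a 23, where the median of 32544 RefSeq promoters was 7. GC content ran from 58.3% (Smc1a) to 81% (Yy1), against a median of 53%. Both medians are over all RefSeq promoters. None was computed for promoters of genes with at least 10 CPM, as the members are. Smc1a, with open intervals over its start, and Yy1, with none there, had the lowest and the highest GC content of the 5, and the part of base composition in the calls was not tested.

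A core of the sequence that YY1 binds, AANATGGCG, was searched on both strands of these windows. It was present once in each of 3 of the 5 members, Ctcf, Smc3 and Stag1, and in 2.39% of all promoters (6.73% of the 6659 promoters of genes with at least 10 CPM). The 3 matches are the same 9 letters, on the minus strand for Ctcf and Smc3 and on the plus strand for Stag1. They are shown with 10 bases on each side, on the plus strand, with the match in capitals.
Ctcf, chr8:105636537-105636565: accgcgccgcCGCCATTTTgtgtccgagc
Smc3, chr19:53600385-53600413: ccgcggccgcCGCCATTTTgtttggccac
Stag1, chr9:100643236-100643264: agaagctctaAAAATGGCGggcggcaacc

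Counted from the start that defines each window, the Ctcf match lies 9 to 17 bases downstream and the Smc3 match begins at the last base before it. The Stag1 match lies 202 to 194 bases upstream. An open interval lay over the match in 2 of 8 lists for Ctcf, 3 for Smc3 and 5 for Stag1. A core of the CTCF motif, searched in the same way, was found in 0 of the 5 windows and in 2.44% of all promoters, which says only that those letters are not in these windows. These are matches of letters, and no binding was measured.

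Expression was then compared between the experiments over the libraries from 10000 and 20000 cells, 2 per experiment, to see how far a repeat on another day gave the same levels. Of the 8 members, 1 rose in experiment 2 (Ctcf), 0 fell and 7 did not pass edgeR's quasi-likelihood test at a Benjamini-Hochberg adjusted p under 0.05. The same test called 12.5% of 12523 genes (5.75% higher and 6.76% lower), so 1 of 8 is near the background. The median log2 fold change of the members was 0.10, and that of all genes tested was 0.00. At an unadjusted p under 0.05 there were 4 of 8 members (Ctcf, Stag1, Nipbl and Yy1), against 25.7% of all genes. The CPM ranges did not overlap for 5 of 8 (Ctcf, Smc3, Stag1, Nipbl and Yy1), against 53.9% of all genes.

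**Figure D2:**
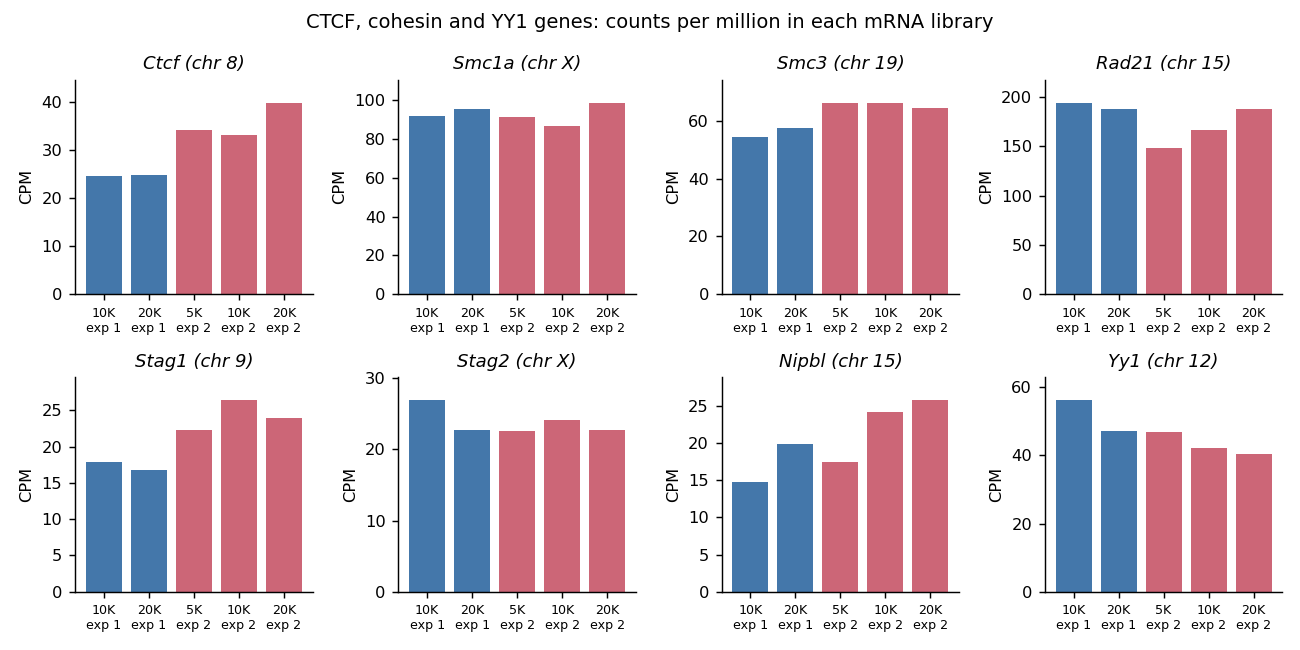
CPM of each gene in the 5 mRNA libraries, 1 bar per library (blue, experiment 1; red, experiment 2; labels give the number of cells and the experiment). Ctcf is at 24.6 and 24.8 CPM in experiment 1 and between 33.2 and 39.9 CPM in experiment 2, while Smc1a stays between 86.7 and 98.8 CPM.

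In experiment 1, Ctcf was at 24.6 CPM (10000 cells) and 24.8 CPM (20000 cells). In experiment 2 it was at 34.1 CPM with 5000 cells, 33.2 with 10000 and 39.9 with 20000. Both experiment 1 libraries were below all 3 of experiment 2. The log2 fold change was 0.57 ± 0.17 (SE; 24.7 ± 0.194 against 36.6 ± 4.73 CPM, SD, n = 2 each), with an edgeR adjusted p of 0.0284. The call was lost when 1 of 3 libraries was left out: in edgeR the adjusted p was 0.106 without 10000 cells of experiment 1, 0.0539 without 20000 cells of experiment 1 and 0.251 without 20000 cells of experiment 2. Over all alternatives run, the adjusted p of Ctcf ran from 0.0172 to 0.251.

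Ctcf lies on a chromosome whose genes were shifted as a whole. Of the 409 chromosome 8 genes that reached a mean of 10 CPM, 91.9% had a positive fold change, with a median log2 value of 0.46. The value of Ctcf exceeded that median by 0.11, less than its SE, and was higher than that of 65.3% of those genes. Zfp42, a YY1-related gene that also lies on chromosome 8, was at 0.38 ± 0.11 (SE). The part of the chromosome's shift in the Ctcf result was not tested.

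The ring genes differed little between experiments. Smc1a was at 91.8 and 95.6 CPM in experiment 1 (10000, then 20000 cells) and at 91.3, 86.7 and 98.8 CPM in experiment 2 (5000, 10000, then 20000 cells). The groups overlapped, and the log2 fold change was -0.01 ± 0.13 (SE; edgeR adjusted p = 0.965). Smc3 was at 54.6 and 57.6 CPM in experiment 1 and at 66.5, 66.3 and 64.7 CPM in experiment 2. Its groups did not overlap, but the difference of 0.22 ± 0.14 did not pass (edgeR adjusted p = 0.337).

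Rad21, which encodes the subunit that closes the ring, was at 194 and 188 CPM in experiment 1 and at 149, 166 and 188 CPM in experiment 2. The libraries from 20000 cells were alike, and the low values were those of 5000 and 10000 cells of experiment 2. Its log2 fold change was -0.11 ± 0.12 (SE; edgeR adjusted p = 0.634). It was -0.015 without the 10000-cell library of experiment 2 and -0.19 without the 20000-cell library of experiment 2. On chromosome 15, which carries Rad21 and Nipbl, the median log2 fold change of 310 genes was -0.25, and Rad21 lay 0.14 above it.

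The STAG genes, whose products take the same place in the complex, differed in pattern. Stag1 was at 17.9 and 16.7 CPM in experiment 1 and at 22.3, 26.4 and 23.9 CPM in experiment 2, with no overlap. The log2 fold change was 0.54 ± 0.19 (SE), with an edgeR adjusted p of 0.0622. Stag1 passed when the genes tested were limited to a mean of at least 10 CPM (edgeR adjusted p = 0.0445) and when scaling factors came from genes outside chromosomes 8 and 15 (0.049), and its edgeR and DESeq2 alternatives ran from 0.0445 to 0.301. Stag2 was at 26.9 and 22.7 CPM in experiment 1 and at 22.6, 24.1 and 22.7 CPM in experiment 2. The groups overlapped, at -0.08 ± 0.18 (SE; edgeR adjusted p = 0.839), and the value ran from -0.18 without the 20000-cell library of experiment 1 to 0.045 without the 10000-cell library of experiment 1.

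Within a library, the ratio of Stag1 to Stag2 counts does not depend on the library's total. It was 0.664 and 0.737 in experiment 1 and 0.987, 1.09 and 1.05 in experiment 2. Smc3 over Smc1a counts was 0.595 and 0.603 in experiment 1 and 0.728, 0.765 and 0.655 in experiment 2. Nipbl over Rad21 counts was 0.0758 and 0.105 against 0.118, 0.146 and 0.136. Each of these ratios was higher in all 3 libraries of experiment 2 than in both of experiment 1. The same held for Smc3 over Rad21 counts (at most 0.306 against at least 0.344) and Smc1a over Rad21 counts (0.508 against 0.522). For single genes, CPM ranges over the 4 fitted libraries did not overlap in 53.9%. No such share was computed for ratios, so the separation cannot be called particular to these pairs. The pairs were chosen after their values were seen, and no test was made on them.

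**Figure D3:**
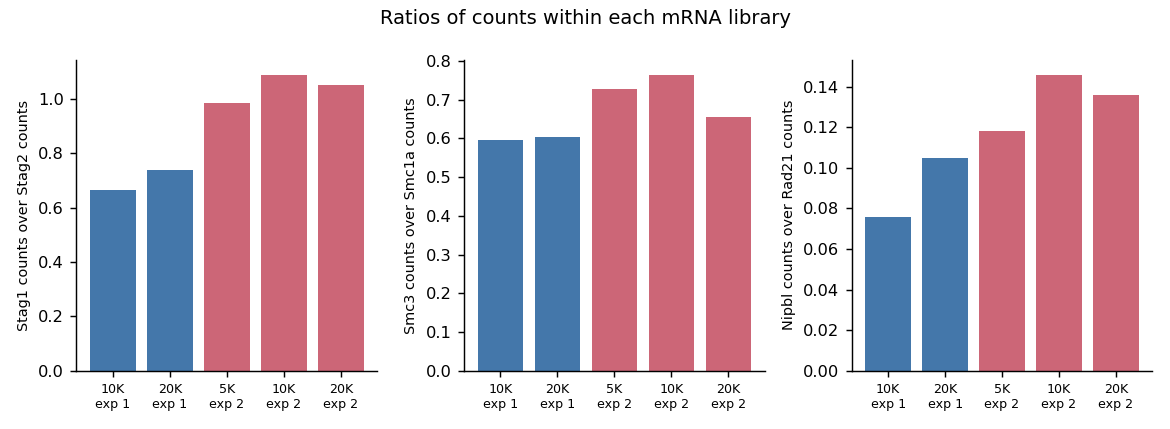
Ratios of counts within each mRNA library, 1 bar per library (blue, experiment 1; red, experiment 2), with the ratio on the y axis. The ratio of Stag1 to Stag2 is at most 0.737 in experiment 1 and at least 0.987 in experiment 2.

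Nipbl was at 14.7 and 19.8 CPM in experiment 1 and at 17.5, 24.2 and 25.7 CPM in experiment 2. The library from 5000 cells fell between the experiment 1 values, so the experiments overlapped once it was counted. The log2 fold change over the 4 fitted libraries was 0.53 ± 0.20 (SE; edgeR adjusted p = 0.0785), and 0.34 without the 10000-cell library of experiment 1. Nipbl lay 0.78 above the chromosome 15 median and was higher than 97.7% of the 310 genes there. It passed without the library from 20000 cells of experiment 1 (0.78, edgeR adjusted p = 0.0191) and in no other alternative, where adjusted p-values reached 0.483.

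Yy1 was the member with the most negative value. It was at 56.1 and 47.1 CPM in experiment 1 and at 46.7, 42.2 and 40.2 CPM in experiment 2. The lowest experiment 1 library and the experiment 2 library from 5000 cells differed by less than 1 CPM. The log2 fold change was -0.32 ± 0.15 (SE; edgeR adjusted p = 0.187), and -0.19 without the 10000-cell library of experiment 1 (edgeR adjusted p = 0.699). Genes on chromosome 12 had a median of 0.03, and 12.6% of 206 had a lower value than Yy1.

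**Figure D4:**
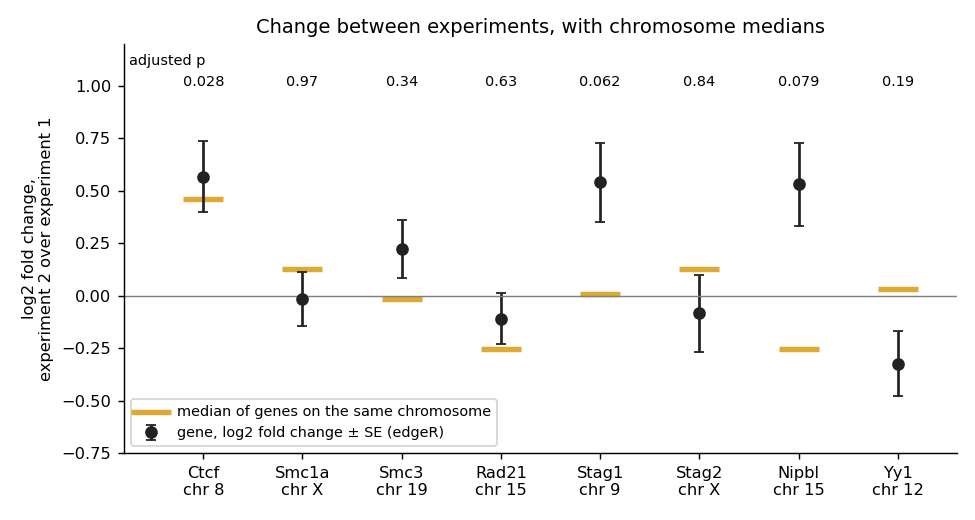
Log2 fold change of experiment 2 over experiment 1 for each gene (points, with SE bars, edgeR over 4 libraries), beside the median of the same chromosome's genes that reached a mean of 10 CPM (yellow bars) and the adjusted p. Ctcf at 0.57 lies close to its chromosome's median of 0.46, while Nipbl at 0.53 lies above a chromosome median of -0.25.

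A few markers of other cell types were lower in experiment 2. Of the 4 primitive endoderm and 2 fibroblast markers with enough counts to be tested, Dab2, Gata6 and Thy1 fell (edgeR adjusted p = 0.000264, 0.0131 and 6.75e-08), and Pdgfra, Sox7 and Col1a1 did not pass (0.118, 0.486 and 0.522). Primitive endoderm markers (Gata6, Gata4, Sox17, Dab2, Pdgfra and Sox7) summed to 11.4 and 15.1 CPM in the experiment 1 libraries and to between 2.45 and 2.74 CPM in experiment 2, and 6 of 6 had a count in some library. The 7 fibroblast markers summed to 31.4 and 34.9 CPM against 7.54 to 10.0 CPM, and Thy1 was the highest of them in each library. Without Thy1 the sum was 2.19 and 1.07 CPM in experiment 1 and 0.239, 1.74 and 0.49 CPM in experiment 2, so the experiments overlapped, and Col3a1 and Lum were at 0 in all of them. In bulk samples, fewer cells of a type and less RNA per cell cannot be told apart, and the part of these cells in the members' values was not tested.

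Cell number was compared over the same 4 libraries, 20000 against 10000 cells, to see whether input moved the levels. Of the 8 members, 0 passed edgeR's test, and 0 had an unadjusted p under 0.05. Over all 12523 genes, edgeR called 0 (0%), DESeq2 called 0, and 101 genes (0.807%) had an unadjusted p under 0.05 in edgeR. With the experiment as a block, edgeR called 4 genes, none of them a member. In that fit 566 of 12523 genes had an unadjusted p under 0.05, again none of them a member. The members' log2 fold changes without the block ran from -0.19 (Yy1 and Stag2) to 0.21 (Nipbl), each with an SE of 0.17 to 0.31. With the block the SE were smaller, from 0.127 (Rad21) to 0.197 (Nipbl), so the fit without it is the less sensitive. Smc1a (86.7 and 91.8 CPM with 10000 cells, 95.6 and 98.8 with 20000) and Stag2 (24.1 and 26.9 against 22.7 and 22.7) were the 2 members whose ranges did not overlap, against 23.3% of all genes.

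The members varied by different amounts over the 5 libraries. The coefficient of variation was 4.93% for Smc1a, 7.73% for Stag2, 8.81% for Smc3, 10.8% for Rad21, 13.2% for Yy1, 19% for Stag1, 21% for Ctcf and 22.4% for Nipbl. The median of genes with at least 10 CPM was 15%. Mean levels were 31.3 ± 6.58 CPM for Ctcf, 92.8 ± 4.57 for Smc1a, 61.9 ± 5.46 for Smc3 and 177 ± 19.2 for Rad21 (SD, n = 5). They were 21.4 ± 4.07 CPM for Stag1, 23.8 ± 1.84 for Stag2, 20.4 ± 4.57 for Nipbl and 46.5 ± 6.12 for Yy1.

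Likeness was measured as the root mean square difference of log2(CPM + 1), centred over the 5 libraries, so that a smaller value is closer. The values were not scaled, so the size of a gene's variation counts as well as its pattern. Genes that vary little therefore come out close whatever their direction. Smc1a and Stag2 were 0.131 apart, although their log2 fold changes between cell numbers were 0.105 and -0.186, neither of which passed. Among the members the closest pairs were Stag2 with Yy1 (0.114) and Smc1a with Rad21 (0.123), and the farthest was Nipbl with Yy1 (0.439). Each gene of these closest pairs had a coefficient of variation below the 15% median, so their closeness is not read as a shared pattern. Ctcf was nearest to Stag1 (0.134). Of 6484 other genes with at least 10 CPM, those most like Ctcf were Flii (0.0154, chromosome 11), Cope (0.0189) and Sf3b3 (0.0239). Cope and Sf3b3 lie on chromosome 8, which holds 6.31% of such genes. Those most like Yy1 were Nav1 (0.0149), Cycs (0.0303) and Mrps33 (0.0339).

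Beyond the members, 38 other genes of chromosome architecture were listed by role, and 35 had enough counts to be tested. Between experiments, 4 rose, 3 fell and 28 did not pass edgeR's test, beside 12.5% of all genes called. The median log2 fold change was 0.12, and 24 of 35 values were positive, where over all genes tested the median was 0.00 and 6275 of 12523 were positive. Fewer of them passed with any 1 library left out. Those fits leave 1 library in a group, and the number of all genes called moved too, so the drop is not read as a result about the list. Between 20000 and 10000 cells, edgeR called 0 of 35, and 1 had an unadjusted p under 0.05.

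Among cohesin regulators, the separase pair moved in opposite directions. Pttg1, which encodes securin, the inhibitor of separase, was at 66.9 and 71.9 CPM in experiment 1 and at 139, 163 and 148 CPM in experiment 2. Its log2 fold change was 1.17 ± 0.13 (SE; edgeR adjusted p = 8.90e-07). Espl1, which encodes separase, the protease that cuts RAD21 at anaphase, was at 236 and 275 CPM in experiment 1 and at 130, 149 and 193 CPM in experiment 2. It fell by 0.58 ± 0.13 on the log2 scale (edgeR adjusted p = 0.00426), and lies on chromosome 15, where the median was -0.25. Pttg1 passed with any 1 library left out. Espl1 did not pass without the 10000-cell library of experiment 2 (edgeR adjusted p = 0.104) or without the 20000-cell library of experiment 1 (0.0592).

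The partner and the opponents of NIPBL did not pass. Mau2, which encodes the NIPBL partner and lies on chromosome 8, was at 3.93 and 3.08 CPM in experiment 1 and at 4.77, 4.71 and 6.41 CPM in experiment 2 (log2 fold change 0.67 ± 0.38, edgeR adjusted p = 0.278; 0.44 without the 20000-cell library of experiment 2). Wapl, which encodes the factor that releases cohesin, was at 46.3 and 50.1 CPM against 48.8, 60.4 and 63.1 CPM (0.36 ± 0.14, edgeR adjusted p = 0.107). For Pds5b, a cohesin-bound regulator gene, the value was 0.28 ± 0.18 (edgeR adjusted p = 0.379), and for its relative Pds5a it was -0.45 ± 0.38 (edgeR adjusted p = 0.512). The Pds5a value was 0.17 without the 10000-cell library of experiment 1, -0.86 without the 20000-cell library of experiment 1, -1.09 without the 20000-cell library of experiment 2 and -0.005 without the 10000-cell library of experiment 2.

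Meiotic cohesin genes and SMC relatives included 2 that passed. Smc1b, the germline counterpart of Smc1a, was at 7.65 and 5.62 CPM in experiment 1 and at 0.0597, 2.06 and 1.13 CPM in experiment 2. It fell by 2.07 ± 0.44 on the log2 scale (SE; edgeR adjusted p = 0.00237; 0.0511 without the 20000-cell library of experiment 2), and it lies on chromosome 15. Smc6, a subunit gene of the SMC5/6 complex, was at 19.6 and 24.4 CPM in experiment 1 and at 23.3, 32.7 and 35.6 CPM in experiment 2. Its value was 0.64 ± 0.18 (edgeR adjusted p = 0.0186), and the library from 5000 cells fell between the experiment 1 values. With that library added to experiment 2 the edgeR adjusted p was 0.0773, and with 1 library left out it reached 0.193.

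Among relatives and partners of CTCF and YY1, the largest rise was in Top2b, which encodes a topoisomerase found at domain borders. It was at 5.90 and 5.09 CPM in experiment 1 and at 14.2, 20.8 and 19.0 CPM in experiment 2, or 1.86 ± 0.24 on the log2 scale (SE; edgeR adjusted p = 7.28e-06), and it passed with any 1 library left out. Ldb1, which encodes a factor of enhancer looping, was at 62.1 and 66.6 CPM in experiment 1 and at 29.3, 43.8 and 46.9 CPM in experiment 2. It fell by 0.51 ± 0.14 (edgeR adjusted p = 0.0212; 0.0532 to 0.155 with 1 library left out). Zfp42 was at 344 and 320 CPM against 466, 430 and 432 CPM (edgeR adjusted p = 0.0282; 0.0628 to 0.171 with 1 library left out). Yy2, a retrogene relative of Yy1, was at 3.13 and 2.48 CPM against 1.49, 2.71 and 2.79 CPM (-0.03 ± 0.48, edgeR adjusted p = 0.984). Ctcfl, the germline relative of Ctcf, had 1 to 14 counts per library and was not tested.

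**Figure D5:**
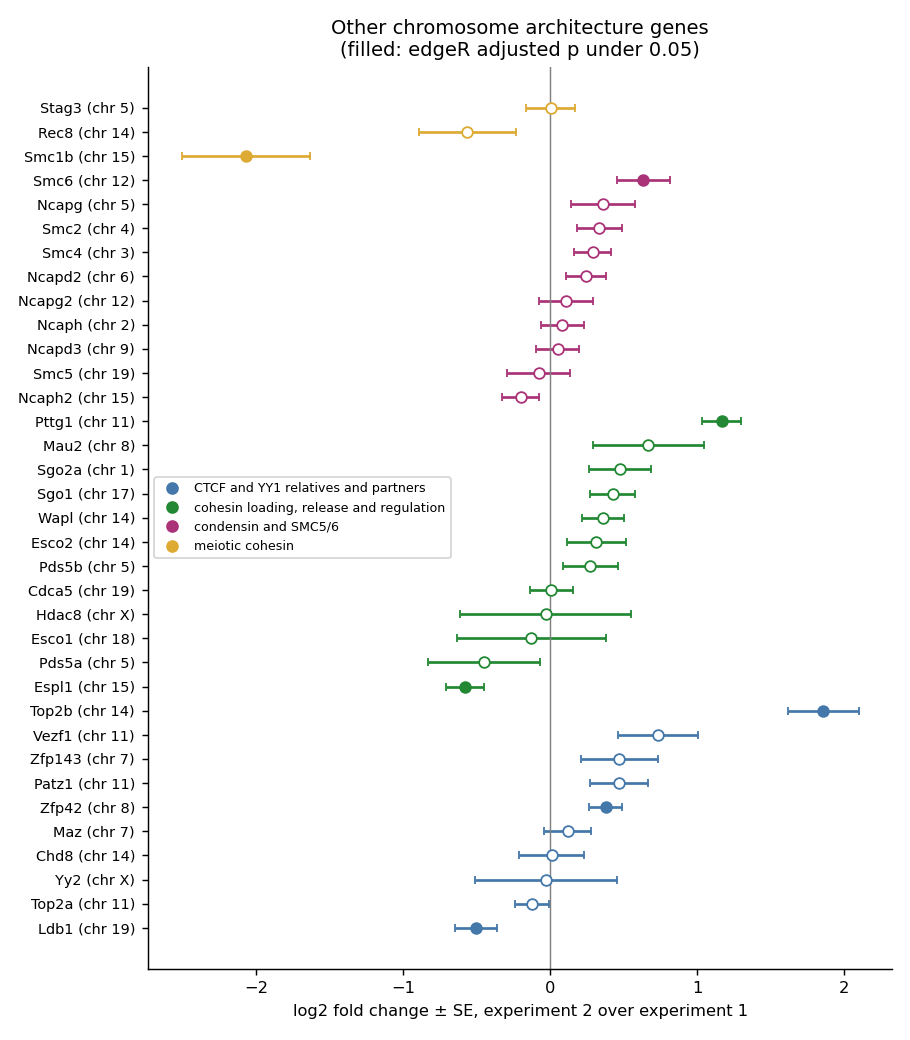
Log2 fold change of experiment 2 over experiment 1 (x axis, with SE bars, edgeR over 4 libraries) for the 35 other chromosome architecture genes tested, coloured by role, with the chromosome in brackets and filled points for an adjusted p under 0.05. The 7 filled points are Pttg1, Top2b, Smc6 and Zfp42 to the right and Espl1, Smc1b and Ldb1 to the left.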

How the data were processed

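Whole-number read counts per gene were deposited by the authors for 5 mRNA libraries; per the file headers the coordinates are mm10. The submitters' processing notes list STAR 2.5, featureCounts, Subread 1.5.0-p1, Bowtie2 2.1.0, MACS2 2.1.1 and bedtools 2.24.0 without roles; strand use and peak thresholds are not given in the sources used here. ATAC data were deposited as intervals without scores, 1 list per library and 1 unified list.

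From these, CPM were computed, and edgeR 4.0.16 (R 4.3.3; TMM, filterByExpr, glmQLFit, glmQLFTest; all genes; Benjamini-Hochberg; threshold 0.05) was fitted to 4 libraries, without a block. The SE is the absolute log2 fold change over the square root of F. The steps were tested on simulated counts. Per the series' design text, the experiments were done on different days, so libraries of the same number are paired; the experiment differences at 10000 and 20000 cells correlated across 11512 genes with r = 0.562. The p-values rest on libraries that share days and carry no replication of days. A TSS is the 5′ end in the count table. All 8 members were matched by gene ID to RefSeq.

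Members and lists were chosen with earlier results of these data known. Named are the 8 members, the listed architecture genes that passed, Mau2, Wapl, Pds5a, Pds5b, Ctcfl and Yy2, and the 3 genes most like Ctcf and Yy1; Rad21l and Adnp fall outside this rule. Alternatives were RLE factors, library size alone, DESeq2 1.42.0, other filters, a block, the 5000-cell library added, each library left out, TSS distances of 500 and 2500 bp, intervals of at least 50 bp, the 9097 widest intervals, and interval centres; scaling factors from genes outside chromosomes 8 and 15 were added after seeing the data. Protein sequences were not used here.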

Additional observations from a re-analysis of the deposited data

Results flagged for a closer look

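Some members moved in opposite directions in the pairs of libraries of 1 contrast, and since each direction rests on 1 pair, the difference was not tested. From experiment 1 to experiment 2, Smc1a changed by -5.12 CPM with 10000 cells and by 3.19 CPM with 20000 cells. Rad21 changed by -28.1 CPM with 10000 cells and by 0.111 CPM with 20000 cells. From 10000 to 20000 cells, Rad21 changed by -5.99 CPM in experiment 1 and by 22.2 CPM in experiment 2, and Smc3 by 2.98 and -1.57 CPM. The library from 10000 cells of experiment 2 is part of both large Rad21 differences.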

How the results depend on the processing

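With 1 library left out, genes called between experiments ran from 803 to 1817 (main 1567), listed architecture genes from 3 to 4 (main 7) and members from 0 to 1 (main 1). The 1 member called without the 20000-cell library of experiment 1 was Nipbl, not Ctcf. Members called were 2 of 8 (Ctcf and Stag1) with genes of at least 10 CPM, where 1432 of 6541 genes were called. They were also 2 of 8 with scaling factors from genes outside chromosomes 8 and 15, chosen after seeing the data, where 1503 of 12523 genes were called. Between cell numbers, genes called were 0 as reported, 2 with no filter on low counts and 4 with the replicate block on the experiment; the block on cell number called 1765 genes between experiments, and neither block changed the call of a member.

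Some log2 fold changes that had not passed the test changed sign. Between experiments, Smc1a was 0.011 with no filter, 0.019 with the 5000-cell library added and 0.022 with the factors outside chromosomes 8 and 15, and ran from -0.098 to 0.083 with 1 library left out. Rad21 was 0.14 relative to its chromosome's median. Yy2 was 0.01 with the factors outside chromosomes 8 and 15. With 1 library left out, Yy2 ran from -0.17 to 0.15, Stag2 from -0.183 to 0.045 and Pds5a from -1.09 to 0.17. Between cell numbers, Smc3 (-0.002) was 0.016 with library size alone, 0.008 with no filter and 0.002 with the replicate block. With 1 library left out, the ranges were -0.13 to 0.16 for Smc3, -0.23 to 0.46 for Ctcf, -0.10 to 0.63 for Nipbl, -0.044 to 0.168 for Rad21, -0.41 to 0.19 for Stag1 and -0.361 to 0.035 for Yy1. The causes were not tested. Promoter intervals were found in 40 to 54 of 64 combinations over the alternatives (main 53), with 43 for intervals of at least 50 bp and 40 for the 9097 widest. TMM scaling moved each member's mean CPM by less than its SD. A library left alone in its group is assumed to vary like the other group.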

Other observations

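Open intervals were also counted inside the members' gene bodies, more than 1000 bp from the TSS. The full spans of the 8 genes sum to 787.2 kb. Over the 64 combinations of gene and list there were 26 such intervals, of which 7 were at least 50 bp wide, and the widest had 268 bp. The list from 50000 Omni-ATAC cells held 11 of them and the 5 low-input lists together 12. The same count over all genes was not made. None of the deposited unified regions lay in a member's gene body outside the promoter window.

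Rad21l and Adnp, listed genes too low to test, were chosen after their values were seen. Rad21l had 0 counts in all 5 libraries. Adnp, which encodes a chromatin factor that competes with CTCF at some sites, had 26 counts in the experiment 2 library from 5000 cells and 1 to 4 counts in the other 4 libraries.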
